A study of Mus musculus with 3 samples.

Results

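The synaptic vesicle and SNARE genes were the array spots whose gene symbol named a synaptotagmin, syntaxin, syntaxin binding protein, VAMP, SNAP, synapsin, SV2 protein, complexin, Rab3, RIM, synaptophysin, synaptogyrin or granin, or the fusion ATPase Nsf and its adaptors. They came to 93 probes of 86 genes, of 21761 probes and 17185 genes in all. Of these, 12 probes matched only through their spelling: Rab30, Rab31, Rab32, Rab33a, Rab33b, Rab34, Rab35, Rab36, Rab37, Rab38, Rab39b and Snap91, the clathrin adaptor also called AP180. The remaining 81 probes belonged to 74 genes. Vamp2 and Syt4 were not analysed here. RNA came from N1E-115 cells, a mouse neuroblastoma line of sympathoadrenal type. One plasmid, pEGFP-C1, encoded EGFP alone, and the other, pEGFP-Nav1.2CTFlag, encoded EGFP joined to a C-terminal stretch of 229 amino acids from the mouse sodium channel NaV1.2 (NaV1.2CT here). Both plasmids were transfected with PEI at 2 µg, 24 h after plating, and RNA was taken 48 h later. Low glucose (5 mM) was represented by 1 array and high glucose (20 mM) by 2, each with both RNAs on it. The RNA pooled 3 dishes, and no label says whether the high glucose arrays stand for different cultures. A p-value here therefore reflects the spread between these arrays, mostly as pooled over all probes, and nothing wider. The glucose levels are those of the sample labels, since the growth protocol gives low glucose medium throughout.

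SNARE proteins drive the fusion of transport vesicles with their target membrane by zippering into a helical bundle. At the synapse the bundle holds a vesicle SNARE (a VAMP), a syntaxin and SNAP-25. Complexin clamps and then assists the bundle, and synaptotagmin senses the calcium that triggers release. NSF, with its SNAP adaptors, takes the used bundle apart. Rab3 and the RIM proteins bring vesicles to the release site, synapsins cluster them, and SV2, synaptophysin and the synaptogyrins are vesicle membrane proteins. Chromaffin-like cells also store granins in dense core granules.

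Each log2 ratio below is NaV1.2CT (Alexa647) over EGFP (Alexa555), relative to probes of like intensity in the same print block, a rectangle of neighbouring spots. The dyes were never swapped, so any dye bias of a probe is part of its ratio. RNA came from whole dishes, so fewer cells with a transcript and less of it per cell cannot be told apart. Median raw intensity over all gene spots ran from 1106 to 1706 in the EGFP channel and from 890.3 to 1354 in the NaV1.2CT channel. The probe of the fused channel's own gene (named Scn2a1 in the files) lies at the 3' end of an mRNA per its description, and the labels do not say whether the plasmid holds that stretch. Its log2 ratio was 0.084 in low glucose and 0.11 and 0.13 in high glucose (0.11 ± 0.022, SD, n = 3 arrays, adjusted p 0.105). All 17 measured markers of sympathoadrenal neuroblastoma, of 20 listed, were brighter than empty spots on every array. The same held for 5 of 8 fibroblast, 5 of 6 glial and 3 of 4 blood markers, so spot brightness separated these lists only in part. Over 3 arrays 4 of the 17 neuroblastoma markers passed the test described below, a larger share than the 3.85% of all probes. Slc6a2 (-0.23) and Eno2 (-0.18) were lower and Isl1 (0.18) and Nefm (0.16) higher. Their part in the results below was not tested.

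Most of the 93 probes had a usable signal. The empty limit was the 95th percentile of raw minus background intensity in the empty spots, to be exceeded in both channels. On all 3 arrays this held for 87 of the 93 members (93.5%), against 89.7% of all probes. The 6 others were Sv2b, Stx16, Sytl3, Syt5, Rab33b and the Syt11 probe NM_018804.

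Few of the release genes differed between the plasmids. In high glucose 2 of the 93 members passed limma's test at an adjusted p of 0.05, or 2.15%, against a background of 2.11% of all probes. Both were lower with NaV1.2CT (background for lower 1.42%), and 0 were higher (background 0.689%). At an unadjusted p under 0.05 the count was 20 of 93 (21.5%), against 22.2% of all probes. Over all 3 arrays 4 members passed (4.3%, background 3.85%): 2 were higher (background 1.17%) and 2 lower (background 2.68%). Unadjusted, 19 of 93 (20.4%) were under 0.05, against 24% of all probes. The members were thus called about as often as any probe on the array. Their median log2 ratio was 0.0020 over 3 arrays and 0.0059 in high glucose, beside -0.0034 and -0.0025 for all probes. Counted without a test, 21 members were above 0 on all 3 arrays (22.6%, background 21.8%) and 26 below 0 on all 3 (28%, background 25.1%). The remaining 46 differed in sign between arrays. The loess setting decides how many members pass. With 1 loess curve for the whole array in place of 1 per print block, 29 members passed in high glucose (16 higher, 13 lower) and 28 over 3 arrays (13 higher, 15 lower). With median centring alone it was 41 (27 higher, 14 lower) and 44 (29 higher, 15 lower). The share of all probes rose as well. With whole-array loess it was 35.1% in high glucose and 34.9% over 3 arrays (members 31.2% and 30.1%), and with median centring 37.2% and 40.4% (members 44.1% and 47.3%).

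**Figure D1:**
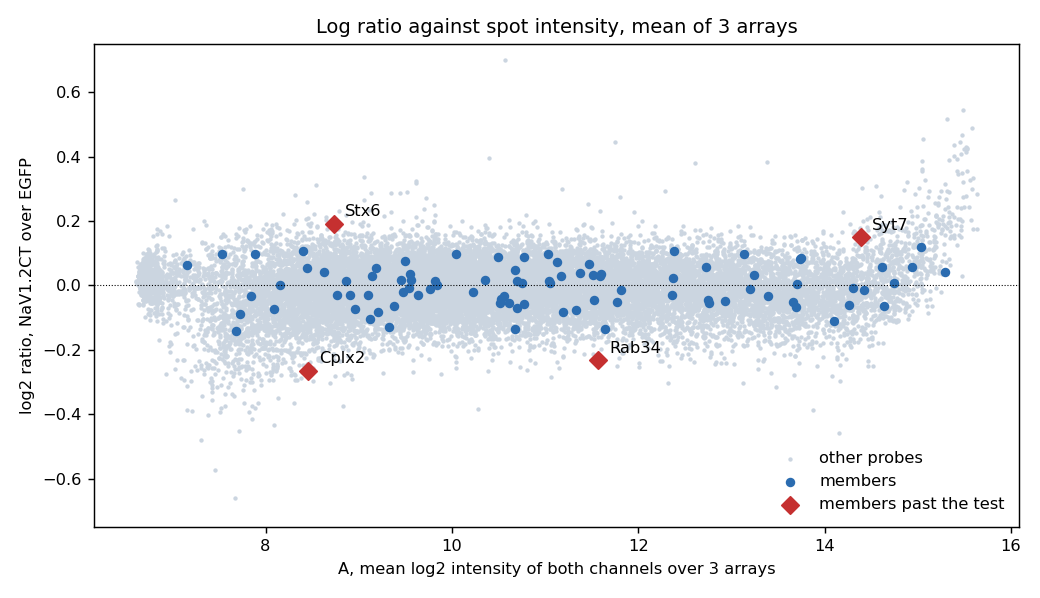
Mean log2 ratio of NaV1.2CT over EGFP over 3 arrays (vertical axis) against A, the mean log2 intensity of both channels (horizontal axis), for all 21761 probes, with the 93 synaptic vesicle and SNARE probes in blue and the 4 that passed limma's test as red diamonds. The members lie within the cloud of all probes at every intensity, and Cplx2 and Stx6 sit at the dim end and Syt7 at the bright end.

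The mean ratio furthest from 0 among the members was that of Cplx2, complexin 2, the small protein that binds the assembled SNARE bundle. Its log2 ratio was -0.16 in low glucose and -0.39 and -0.25 in high glucose. All 3 arrays lay below 0, and the low glucose array was the least negative. The mean over 3 arrays was -0.26 ± 0.12 (SD, n = 3, adjusted p 0.0273) and in high glucose -0.32 ± 0.10 (SD, n = 2, adjusted p 0.0261). Raw minus background intensity was 467.1 in the EGFP channel and 256.4 in the NaV1.2CT channel in low glucose, 306.8 and 133.3 on high glucose 1, and 331.0 and 156.9 on high glucose 2. The spot was dim, at percentile 17 of A among all probes, so leaving out probes under the 25th percentile removes it. Its relative Cplx1 had -0.11, 0.0038 and 0.046 on the 3 arrays in the same order, a mean of -0.022 ± 0.083 (SD, n = 3, adjusted p 0.778), with no common direction.

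Stx6, a syntaxin of the trans-Golgi network and endosomes rather than of the synapse, rose with NaV1.2CT over the 3 arrays. Its log2 ratio was 0.26 in low glucose and 0.12 and 0.20 in high glucose, above 0 on every array. The mean was 0.19 ± 0.069 (SD, n = 3, adjusted p 0.0357), and in high glucose alone 0.16 ± 0.054 (SD, n = 2, adjusted p 0.0889). Its raw minus background intensity was higher in the EGFP channel on all 3 arrays (467.2 against 365.8, 372.7 against 259.4, and 302.9 against 244.1). The positive ratio is therefore relative to the probes around it: Stx6 and Cplx2 lie in the same print block of 462 probes. After loess over the whole array that block's median was -0.18 in low glucose and -0.20 and -0.12 in high glucose, and Stx6 then had 0.030 over 3 arrays (adjusted p 0.611). The call on Stx6 ended without the low glucose array, at an adjusted p of 0.0889, and without high glucose 2, at 0.0562.

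Syt7, a synaptotagmin of high calcium affinity known for slow and asynchronous release and for lysosome and granule fusion, also rose over 3 arrays. Its log2 ratio was 0.13 in low glucose and 0.18 and 0.14 in high glucose, close together. The mean was 0.15 ± 0.026 (SD, n = 3, adjusted p 0.0481). It was one of the brightest members, at percentile 96.5 of A. The call ended when any array was left out (adjusted p 0.0800 without low glucose, 0.201 without high glucose 1 and 0.0803 without high glucose 2). With loess over the whole array its direction turned, to -0.14 (adjusted p 0.0231). The median of its print block was then -0.32, -0.24 and -0.20 on the 3 arrays.

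The remaining member past the test was Rab34, which belongs to the pattern by spelling only and is a Rab of the Golgi, lysosomes and cilium. It fell on every array, by 0.20 on the log2 scale in low glucose and 0.27 and 0.23 in high glucose. The mean was -0.23 ± 0.036 (SD, n = 3, adjusted p 0.0187), and in high glucose -0.25 ± 0.028 (SD, n = 2, adjusted p 0.0315). Its arrays were closer together than those of Cplx2. In the EGFP channel raw minus background was 5182, 4661 and 1773, and in the NaV1.2CT channel 3815, 3190 and 1170. Rab34 was also the only member past 2 in size on both high glucose arrays in the authors' deposited z-score, which is missing for 2 and 31 members on those arrays. With plain background subtraction, and with the authors' net intensities or ratios, none of Cplx2, Stx6, Syt7 and Rab34 passed, while each kept its direction.

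RefSeq promoter windows (GRCm38.p6, 250 bases before to 50 after a start site) were found for 67 of the 86 genes, 88 windows in all. They are shown for Cplx2 and Stx6, which lie in 1 print block and passed in opposite directions, and for Syn1. Syn1 was the only member whose window held both the cAMP response element and the REST letters searched. Capitals mark motif matches on either strand: GC boxes (GGGCGG), the cAMP response element (TGACGTCA) and the left part of the site of the neuronal repressor REST (TTCAGCACC). The Cplx2 window is chr13:54302306-54302605 (plus strand), that of Stx6 chr1:155158453-155158752 (plus strand) and that of Syn1 chrX:20920869-20921168 (minus strand), each written 5' to 3' along the gene.
Cplx2: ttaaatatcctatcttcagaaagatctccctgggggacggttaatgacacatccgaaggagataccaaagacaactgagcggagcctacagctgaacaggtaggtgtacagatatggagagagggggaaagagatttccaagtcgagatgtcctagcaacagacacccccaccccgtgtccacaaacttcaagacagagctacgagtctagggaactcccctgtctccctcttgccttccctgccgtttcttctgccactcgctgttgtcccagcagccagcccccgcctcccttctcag
Stx6: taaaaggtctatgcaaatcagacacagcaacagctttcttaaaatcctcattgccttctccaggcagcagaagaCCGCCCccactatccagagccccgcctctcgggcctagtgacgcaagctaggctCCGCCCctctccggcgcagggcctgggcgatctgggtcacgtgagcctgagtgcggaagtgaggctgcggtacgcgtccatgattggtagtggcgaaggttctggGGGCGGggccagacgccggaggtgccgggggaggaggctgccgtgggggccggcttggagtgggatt
Syn1: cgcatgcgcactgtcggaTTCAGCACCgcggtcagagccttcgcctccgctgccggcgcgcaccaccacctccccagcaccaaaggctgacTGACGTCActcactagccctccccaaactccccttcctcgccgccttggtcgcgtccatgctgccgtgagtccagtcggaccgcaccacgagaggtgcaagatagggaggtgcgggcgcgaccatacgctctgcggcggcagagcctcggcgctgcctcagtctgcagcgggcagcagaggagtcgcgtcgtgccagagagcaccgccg
The Cplx2 window held none of the 3 motifs and was 53.3% G or C, while the Stx6 window held 3 GC boxes at 63.3%. The Syn1 window held a cAMP response element and a REST match. Over the members, GC boxes were in 62.5% of windows against 35.7% of all 32851 windows. The cAMP response element was in 4 of 88 member windows (4.55%, against 1.79%), those of Chgb, Napa, Stxbp3 and Syn1. The REST letters were in 1 of 88, that of Syn1 (1.14%, against 0.371%). Member windows had a median of 61.3% G or C, against 52.7%. These are matches of letters, and no binding was measured.

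The neuronal release core was 24 genes with 26 probes picked for their role. With loess per print block, Cplx2 alone of the 26 probes passed over 3 arrays, beside 3.85% of all probes, and 13 of the 26 lay above 0. The 95% interval of the log2 ratio, unadjusted, lay within 0.25 of 0 for 25 of the 26, all but Cplx2. For all members it did so for 90 of 93. Other settings let more core genes pass over 3 arrays, while the share of all probes that passed rose as well, as given above. With loess over the whole array, Chga, Napb, Rab3a, Stx1a and a Vamp1 probe passed as higher. Sv2c, Syn3 and Syngr3 passed as lower, and the Rims1 probes passed in opposite directions. The same held with median centring, where Chgb and Napa (higher) and Sv2b (lower) also passed.

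With loess per print block, the SNARE proteins of release stayed near 0. Snap25, the plasma membrane partner with a pair of SNARE helices, had -0.030, -0.030 and -0.039, the closest agreement between arrays of any core probe (mean -0.033, interval -0.11 to 0.042, adjusted p 0.582). It was a dim spot, with EGFP intensities of 213.9, 136.0 and 129.0. Stx1a, the syntaxin of the presynaptic membrane, had 0.11 in low glucose and 0.043 and 0.066 in high glucose, all above 0 (mean 0.074, interval -0.0046 to 0.15, adjusted p 0.232). Vamp1, the vesicle partner measured here, had means of 0.040 and 0.015 on its pair of probes. Probe sequences are not in the files, so hybridisation of near relatives to one spot was not tested.

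The proteins that recycle the bundle, trigger it and bring vesicles to it did not pass with loess per print block either. The fusion ATPase and its adaptors were all above 0 in the mean, with Nsf at 0.065, Napa (alpha-SNAP) at 0.056 and Napb (beta-SNAP) at 0.049, and none passed (adjusted p 0.294, 0.366 and 0.444). Nsf was above 0 on every array, at 0.097, 0.075 and 0.022. Syt1, the calcium sensor of fast release, had -0.16 in low glucose and -0.078 and -0.015 in high glucose, all below 0 (mean -0.084, interval -0.17 to 0.0037, adjusted p 0.225). Rab3a, the vesicle GTPase, had 0.058, 0.068 and -0.11, with the pair of high glucose arrays on opposite sides. Rims1, the active zone scaffold that binds Rab3, gave 0.0042, 0.067 and 0.25 on the probe AJ310531 and 0.043, -0.040 and -0.089 on AK021118, so its probes did not share a direction.

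Vesicle membrane and clustering proteins spread wider. Sv2b had -0.17, -0.18 and -0.077 (mean -0.14 ± 0.057, SD, n = 3, adjusted p 0.0648) and was the nearest core gene to the threshold after Cplx2. It was above the empty limit on 2 of 3 arrays only. Sv2a had -0.064, -0.030 and -0.16, while Sv2c had 0.18, 0.049 and 0.031, so the SV2 genes went both ways and none passed. The synapsins differed among themselves as well: Syn1 had -0.18 in low glucose and 0.011 and 0.071 in high glucose, Syn2 the opposite order at 0.047, -0.11 and -0.17, and Syn3 was above 0 throughout at 0.045, 0.030 and 0.19. Syp, synaptophysin, had 0.051, -0.066 and -0.078. Of the synaptogyrins in the core, Syngr1 had 0.092, -0.011 and -0.041 and Syngr3 -0.082, -0.076 and -0.0033. With loess per print block, no adjusted p in these families was under 0.05.

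**Figure D2:**
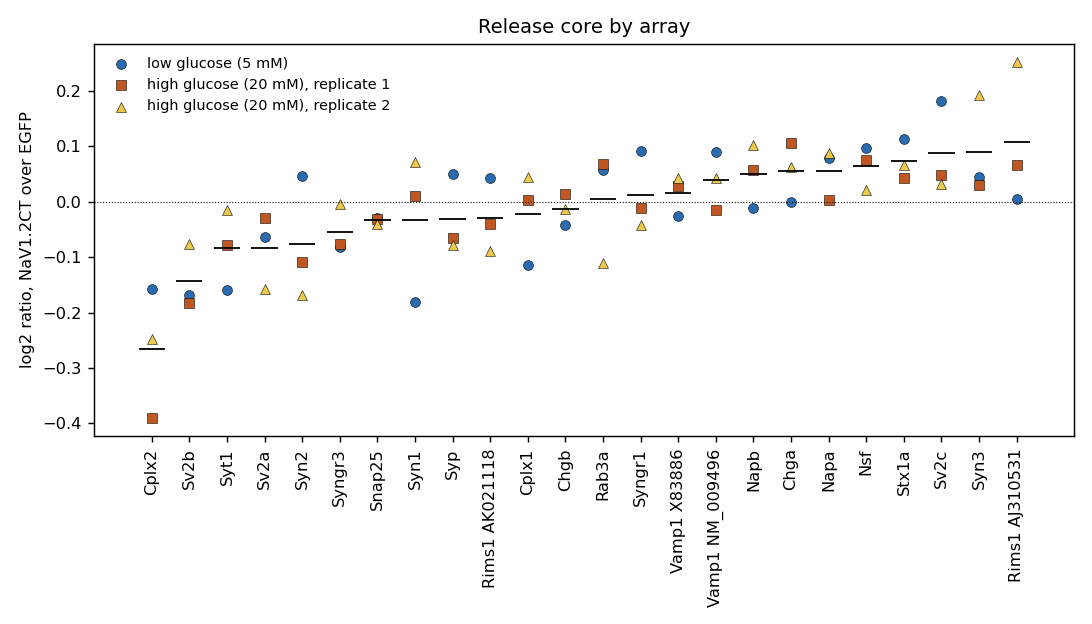
Log2 ratio of NaV1.2CT over EGFP (vertical axis) on each of the 3 arrays for 24 of the 26 probes of the release core, ordered by their mean (short lines). Blue circles are low glucose, orange squares and yellow triangles the high glucose arrays. Cplx2 lies apart at -0.26 on average, and for many other probes the arrays straddle 0.

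The granins of dense core granules gave some of the strongest spots. Chga had EGFP intensities of 25499, 28926 and 28329, at percentile 98.9 of A, and Chgb lay at percentile 96.6. Chga had log2 ratios of 4.6e-06 in low glucose and 0.11 and 0.064 in high glucose (mean 0.056, adjusted p 0.376). Chgb had -0.041, 0.014 and -0.013 (adjusted p 0.844). Over all genes, probes with A between 14 and 15 on an array had medians of -0.019, -0.0056 and -0.0038 on the 3 arrays. Chgb lay in that range on every array, and Chga in low glucose only, at 14.74. In high glucose Chga had A of 15.08 and 15.01. Brighter probes, with A between 15 and 16, had medians of 0.13, 0.14 and 0.14, above both Chga ratios in high glucose. The brightest member, with a mean A in that range, was Rab3il1 (a Rab3A interacting protein), which had 0.0073, 0.064 and 0.058, at percentile 99.7.

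Grouped by role, the medians over 3 arrays ran from -0.14 for the 2 complexins to 0.056 for the 3 genes of the fusion ATPase and its adaptors. The 15 synaptotagmin probes had a median of 0.0018 with 8 above 0, and Syt7 alone passed. The 4 synaptotagmin-like genes, Rab27 effectors in granule transport, were all below 0 in the mean and none passed, with Sytl1 lowest at -0.19, -0.12 and -0.087 (mean -0.13, adjusted p 0.0745). Sytl4, known as granuphilin, had -0.024, -0.14 and -0.17 (mean -0.11, adjusted p 0.135). Of 8 syntaxins of inner membranes, Stx6 passed, and Stx7 and Stx12, both endosomal, had means of -0.14 and -0.10 without passing (adjusted p 0.104 and 0.135). Of 7 plasma membrane syntaxins 6 were above 0 and none passed. The VAMPs had 6 of 8 probes above 0, the syntaxin binding proteins 3 of 6, Rab3 and its regulators 3 of 7, the SNAP25 family 3 of 4, and none of them passed. Over all probes 10467 of 21761 were above 0. The 12 genes taken in by spelling had a median of -0.053, with Rab34 lower and Rab39b, a neuronal Rab, at 0.16, 0.082 and 0.11 (mean 0.12, adjusted p 0.0889). By its mean A, at percentile 99.2, Rab39b lay among the probes with A of 15 to 16. In that range the median over all probes was 0.15 over 3 arrays.

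**Figure D3:**
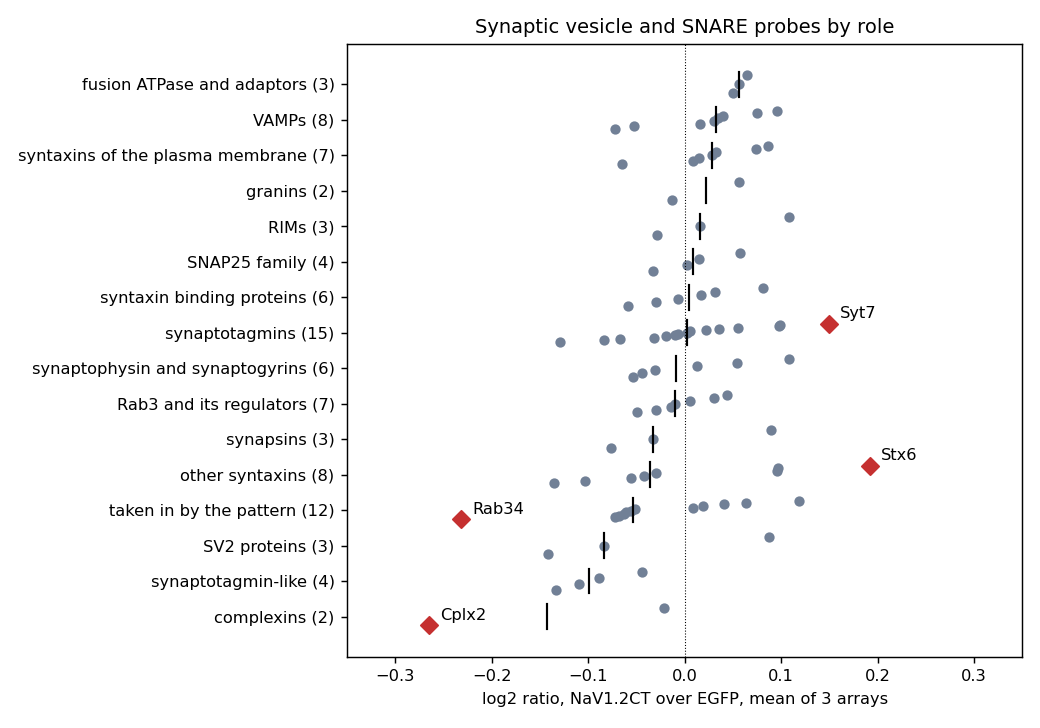
Mean log2 ratio of NaV1.2CT over EGFP over 3 arrays (horizontal axis) of each of the 93 probes, by role group with the number of probes in brackets; short lines are group medians and red diamonds the 4 probes past limma's test. The groups centre near 0, between -0.14 and 0.056, and no group has more than 1 red diamond.

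Of the 7 genes with 2 probes, none had a probe past the test, and the probes gave unequal values for some. Vamp5 had -0.053 on AF119384 and 0.096 on NM_016872, and Syngr2 had 0.054 on AK004030 and -0.045 on NM_009304. Stxbp5 (tomosyn, which holds syntaxin away from VAMP) had -0.0069 on AK002951 and 0.031 on AK019788. The latter ran from 0.14 in low glucose to -0.10 on high glucose 2.

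The low glucose ratio minus the mean high glucose ratio tests whether NaV1.2CT acted differently at the 2 glucose levels. None of the 93 members passed by limma (0%, background 0.0276%), and 7 were under 0.05 unadjusted (7.53%, background 7.5%). The low glucose array carries a number from another array series than the others, so series and glucose cannot be told apart, and its spread is taken from the high glucose arrays. In a simulation of this comparison over 21761 probes, 8.42% of differences of 0.3 and 93.3% of differences of 0.6 were recovered, so only large differences were detectable. The lowest differences were those of Snap91 (-0.23, interval -0.40 to -0.066), Syn1 (-0.22, interval -0.39 to -0.057) and Stx11 (-0.22, interval -0.38 to -0.057), each with an adjusted p of 0.574. Snap91, which recruits clathrin and sizes vesicles, had -0.23 in low glucose and 0.040 and -0.029 in high glucose. Stx11, a syntaxin of immune cell granules, had -0.11 in low glucose and 0.12 and 0.092 in high glucose. At the other end were Syn2 (0.18, interval 0.019 to 0.35, adjusted p 0.635), Cplx2 (0.16, adjusted p 0.699) and the Stxbp5 probe AK019788 (0.16, adjusted p 0.706). Syn1 and Syn2, which both tether vesicles to actin, thus lay at opposite ends without either passing.

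Across the 93 members the log2 ratios of 2 arrays were related as loosely as over all probes. Pearson's r was 0.46 between low glucose and high glucose 1 (0.46 over all probes), 0.32 between low glucose and high glucose 2 (0.32) and 0.53 between the high glucose arrays (0.48). These are correlations across probes, which share arrays and dyes and are no replicates, and are given as a description. The SD of the member ratios was 0.094, 0.092 and 0.10 on the 3 arrays. The median absolute difference between 2 arrays over the members was 0.065, 0.077 and 0.050 for the same pairs.

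Brightness itself differed between arrays more than the ratios did. Some members were far brighter on the low glucose array than on both high glucose arrays, in both channels alike. After removing the median over all probes, A was higher by over 2 on the log2 scale for 6 members (6.45%, background 2.9%) and lower by as much for 0 (background 1.05%). The widest gap was that of the Syt11 probe NM_018804. Its EGFP intensity was 19689 in low glucose and 9.27 and 28.4 in high glucose, and its NaV1.2CT intensity 17947, 3.72 and 8.30. The other Syt11 probe, AK018343, had 653.1, 646.3 and 773.2 in the EGFP channel, with no such gap. The remaining genes were Stx16 (higher by 5.51), Stx11 (3.33), Napb (2.75), Syt1 (2.47) and Cplx1 (2.11). Spearman's rho of A over the members was 0.84 and 0.82 between low glucose and each high glucose array, and 0.98 between the high glucose arrays. Glucose and the array series cannot be told apart here either.

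**Figure D4:**
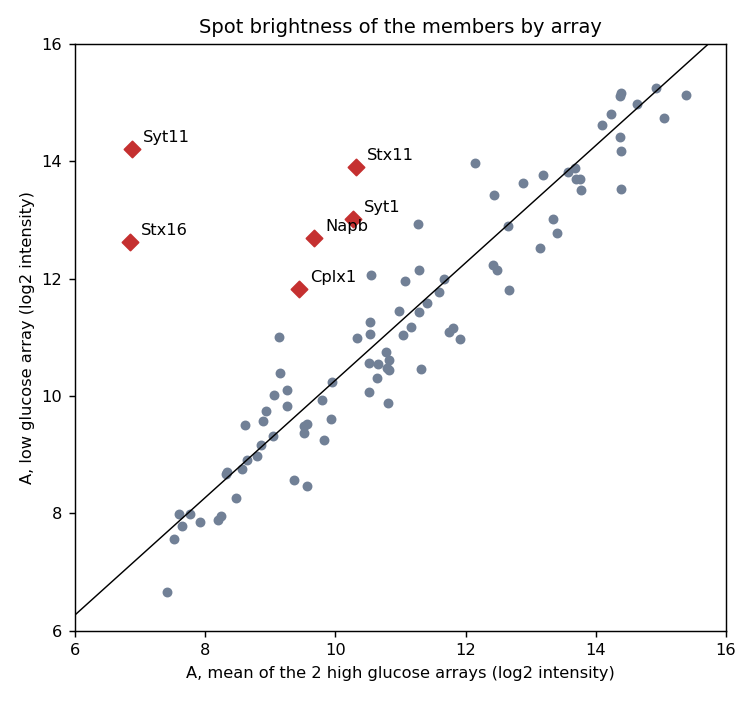
A, the mean log2 intensity of both channels, on the low glucose array (vertical axis) against its mean on the 2 high glucose arrays (horizontal axis) for the 93 members. The line is the median offset over all probes, and the 6 members brighter by over 2 on the log2 scale in low glucose are red diamonds, led by Syt11 and Stx16.

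Other genes of the release pathway gave a like picture. From 5 lists of 113 genes, 90 were measured, and 1 passed over 3 arrays or in high glucose (median log2 ratio -0.0073 over 3 arrays, against -0.0038 for all named genes with 1 probe each). Of all 17185 named genes, 193 passed as higher and 462 as lower over 3 arrays. In high glucose these counts were 114 and 248. The list gene that passed was Cltb, a clathrin light chain of vesicle endocytosis, with 0.14 in low glucose and 0.32 and 0.46 in high glucose (mean 0.30 ± 0.16, SD, n = 3, adjusted p 0.0295). By its mean A, at percentile 99.1, it lay among the probes with A of 15 to 16, whose medians are given beside the granins. On the low glucose array Cltb was in the range below, with A of 14.65. It passed with any 1 array left out and with a second loess over intensity (0.29). Its size depended on the loess, at 0.15 over the whole array and 0.65 with median centring, and it did not pass with plain background subtraction or the authors' net intensities. The other 21 endocytosis genes did not pass, with Ap2m1, of the AP-2 adaptor, at 0.14 (adjusted p 0.0693) and Dnm3, a dynamin, at 0.13 (adjusted p 0.0694). Of 20 active zone and priming genes 0 passed. Pclo, piccolo, a giant scaffold of the active zone, came nearest at 0.18, 0.15 and 0.11 (mean 0.14, adjusted p 0.0545), while its partner Bsn, bassoon, had a mean of -0.11 (adjusted p 0.120). None passed among 17 vesicular transporter and proton pump genes, 12 dense core granule genes and 19 other SNAREs and tethers. Slc17a7, the glutamate transporter VGLUT1, had -0.39 in low glucose but -0.14 and -0.050 in high glucose (adjusted p 0.0934), on a dim spot at percentile 10.6.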

How the data were processed

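The deposited files hold, per the file headers, raw and background intensity of each spot and channel, net intensity, a ratio of EGFP over NaV1.2CT net intensity, and a z-score; the authors' score is missing for 454, 918 and 8819 spots of 23232. The score's formula and the scanner are not given in the sources used here. The members and lists were chosen with earlier results of these data known, and so was loess per print block.

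Intensities were corrected with limma 3.58.1 (normexp, offset 50) in R 4.3.3. Log2 ratios (NaV1.2CT over EGFP) underwent loess normalization (span 0.3) within each of 48 print blocks, with empty spots at weight 0. The 1235 empty and 231 GAPDH spots were left out, and 21766 gene spots became 21761 probes. lmFit and eBayes gave 3 tests, each two-sided with Benjamini-Hochberg adjustment over all probes at 0.05: high glucose (2 arrays) against 0, all 3 arrays against 0, and low minus high glucose. Residual degrees of freedom were 1, 2 and 1, with prior 7.54, 7.16 and 7.54. The few arrays limit the precision. Tested on simulated data over 21761 probes, 90.5% of changes of 0.3 were recovered in high glucose and 98.9% over 3 arrays. In these simulations the changes were added to log ratios after background correction. Shrinkage of dim spots by the offset was therefore not simulated, nor was bias by intensity left after loess. The shares recovered do not speak to how often such a change at a dim spot would be found.

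Gene names are those of the files: 92 of the 93 member probes have a current symbol in the RefSeq table, and Stxbp3a was matched by accession (now Stxbp3). The text names members past a test, the release core, the extremes of the ratios and differences, genes with several probes and those whose call depends on a setting; Rab3il1, whose brightness drew attention, and some list genes near the threshold were chosen after their values were seen. Some members count in the totals but are not reported singly here. Alternatives were other normalizations, background corrections, dim-probe filters, the authors' values and leaving out each array.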

Additional observations from a re-analysis of the deposited data

How the results depend on the processing

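The difference between glucose levels had 0 members past the threshold in each alternative run. In high glucose the count of 2 (2.11% of all probes) became 29 with loess over the whole array (35.1% of all probes), 41 with median centring (37.2%), 0 with plain background subtraction (0.175%), 0 with a normexp offset of 10 (0.303%), 1 without probes under the 25th percentile of A (3.02%), and 1 by the authors' z-score past 2 on both arrays (0.626%). It stayed at 2 with the authors' net intensities and ratios (0.364% and 0.327%), but as Stx16 and Syt11 (NM_018804), which were below the empty limit on both arrays, in place of Cplx2 and Rab34. Over 3 arrays the count of 4 (3.85%) became 28 (34.9%), 44 (40.4%), 0 (0.00922%), 3 (2.39%) and 2 (3.83%) under the first 5 of these, 0 with the authors' net intensities (0.00461%), 0 with their ratios (0.0184%) and 0 by z-score (0.178%). Leaving out 1 array gave 2 to 3 members (2.11% to 3.48% of all probes). A second loess over intensity, the filter on the empty limit and 1 probe per gene left both counts at 2 and 4.

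With loess over the whole array 5 members in high glucose and 7 over 3 arrays passed with their direction turned, and with median centring 15 and 17. Of the genes named by rule, those turned by whole-array loess were Sv2c (-0.24 in high glucose, -0.18 over 3 arrays), Syn3 (-0.17 over 3 arrays) and Syt7 (-0.14 over 3 arrays). Median centring turned Sv2c (-0.24 and -0.21), Rab3a (0.39 in high glucose), Sytl4 (0.33 in high glucose, 0.32 over 3 arrays) and Stxbp5 AK019788 (0.31 in high glucose). Over 3 arrays it also turned Syn3 (-0.19), Chgb (0.45) and the marker Eno2 (0.18). Stx6 turned over 3 arrays as well but did not pass (-0.066, adjusted p 0.341). Of other members named in the text, Rab3il1 turned to -0.15 with whole-array loess and Vamp5 AF119384 to 0.26 with median centring, both over 3 arrays. Neither setting removes the print block, and median centring leaves any trend with intensity as well. The members listed here that median centring turned upward lay at percentiles 88.5 to 96.6 of A. Sv2c, Syn3 and Stx6, turned downward, lay at 54.4, 59.2 and 21.6. How much of each turn print block or intensity accounts for was not tested. Signal over background limits the 6 members that were not above the empty limit on every array, and Cplx2, Stx6 and Snap25 were dim though above it. No paired analysis was possible because the low glucose group has 1 array, so the groups share fewer than 2 replicate numbers.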
